A study of Arabidopsis thaliana with 12 samples.

Results

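The genes described here are 9 Arabidopsis thaliana loci of salicylic acid signalling and cell-wall defence, out of 16747 genes tested in prmt5-5 and 16473 in picln-1. They are the pathogen- and clock-controlled gene PCC1 (AT3G22231), its neighbour AT3G22235, WRKY70 (AT3G56400), PAD4 (AT3G52430), ACD6 (AT4G14400), the wall-associated kinase WAK1 (AT1G21250), ECS1 (AT1G31580), the lectin-like gene AT5G03350 and the camalexin gene CYP71A13 (AT2G30770). They were chosen by name with their deposited log2 changes in view, so the falls below are a description and carry no test. Polyadenylated RNA of whole seedlings was sequenced in 12 libraries, 4 each of the prmt5-5 mutant, the picln-1 mutant and wild type (WT, titled Col). All seedlings were grown for 10 days at 22 °C, with 9 days of 12 h light and 12 h dark. PRMT5 is an arginine methyltransferase and pICln a chaperone, both acting in the assembly of the small ribonucleoproteins of the spliceosome, and 1 mutant line stands for each of the 2 genes. The design text of the series names a cold treatment, which no library label carries.

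Salicylic acid is the plant hormone of defence against pathogens that feed on living tissue. PAD4, together with EDS1, drives its accumulation, the NPR proteins sense it, and TGA factors of the bZIP family and WRKY factors pass the signal to defence genes. ACD6 is an ankyrin-repeat membrane protein whose hyperactive form raises salicylic acid levels. At the cell surface, WAK1 is a receptor kinase that binds pectin of the cell wall, and CYP71A13 makes an intermediate of camalexin, the antimicrobial indole compound of Arabidopsis. Salicylic acid and pathogens induce PCC1, WAK1 and WRKY70 in this species.

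The data are the authors' lists of changed genes and of changed gene bins, where a bin is an intron, an exon or a part of an exon. They hold no values per library and no depth, so none is given for any gene below. The WT libraries are shared by the comparisons of both mutants. Every listed gene had an adjusted p below 0.05. The smallest listed change was 0.58 on the log2 scale in either mutant, a 1.49-fold change in prmt5-5. By the ranks recovered from the p-values, at least 6840 genes passed this p limit in prmt5-5 and 2145 in picln-1. Only 1531 in prmt5-5 and 279 in picln-1 were listed, so most genes that passed the p limit were left out. A gene described as not listed may have changed by less, missed the p limit or not been tested. The labels were checked on the mutated genes: pICln was 11.2-fold lower in picln-1 than in WT (adjusted p = 1.65e-94 by the authors' deposited table). An intron in the coding sequence of PRMT5 was kept in 81.0% of its junction reads in prmt5-5 libraries, in 0.870% in picln-1 and in 0% in WT, also by the authors' deposited table. This intron was picked for its high retention in prmt5-5, so it describes that mutant and is not an independent check of its label. PRMT5 was not listed as a changed gene in either mutant.

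The sequences around the starts of 5 genes are shown first, to let the loci of the deepest falls be compared letter by letter with each other and with loci of smaller falls. Each runs 5′ to 3′ along the gene's own strand, from 250 bases before the annotated gene start to 50 bases after it, in RefSeq's TAIR10.1 assembly. Capitals mark TGACG on either strand, the core letters bound by TGA factors, and TTGAC on either strand, the core of the W-box bound by WRKY factors. The 2 motifs can overlap, as in TTGACG. The first 3 loci are PCC1, AT3G22235 and the next gene of the same family, AT3G22240. They are followed by AT5G03350 and WRKY70, members at other loci that were picked because they hold TGACG more than once. Members without TGACG are not shown, among them WAK1, ACD6 and ECS1, whose falls were deeper than that of WRKY70.
PCC1 (chr3:7846784-7847083, minus strand): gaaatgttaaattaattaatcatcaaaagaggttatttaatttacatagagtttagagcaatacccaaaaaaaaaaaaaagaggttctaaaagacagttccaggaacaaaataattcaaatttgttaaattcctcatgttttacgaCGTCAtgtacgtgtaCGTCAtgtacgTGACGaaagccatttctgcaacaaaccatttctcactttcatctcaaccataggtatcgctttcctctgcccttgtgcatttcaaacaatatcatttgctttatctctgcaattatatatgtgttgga
AT3G22235 (chr3:7855765-7856064, minus strand): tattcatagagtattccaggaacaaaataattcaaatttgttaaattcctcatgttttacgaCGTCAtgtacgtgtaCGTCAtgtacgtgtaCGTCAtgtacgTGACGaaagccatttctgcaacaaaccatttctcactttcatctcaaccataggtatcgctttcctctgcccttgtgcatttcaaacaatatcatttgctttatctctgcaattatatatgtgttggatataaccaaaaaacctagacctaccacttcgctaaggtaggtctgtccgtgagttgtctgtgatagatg
AT3G22240 (chr3:7864846-7865145, minus strand): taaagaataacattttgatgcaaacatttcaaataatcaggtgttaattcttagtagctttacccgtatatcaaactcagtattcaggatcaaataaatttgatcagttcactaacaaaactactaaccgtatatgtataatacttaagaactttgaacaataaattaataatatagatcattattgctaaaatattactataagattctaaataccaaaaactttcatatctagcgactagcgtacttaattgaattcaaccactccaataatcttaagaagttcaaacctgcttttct
AT5G03350 (chr5:816621-816920, minus strand): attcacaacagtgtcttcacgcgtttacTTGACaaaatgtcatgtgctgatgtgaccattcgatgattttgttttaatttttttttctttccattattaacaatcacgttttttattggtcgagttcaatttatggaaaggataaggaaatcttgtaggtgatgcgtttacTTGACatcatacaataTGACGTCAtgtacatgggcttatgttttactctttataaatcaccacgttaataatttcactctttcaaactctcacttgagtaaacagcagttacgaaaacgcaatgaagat
WRKY70 (chr3:20910574-20910873, minus strand): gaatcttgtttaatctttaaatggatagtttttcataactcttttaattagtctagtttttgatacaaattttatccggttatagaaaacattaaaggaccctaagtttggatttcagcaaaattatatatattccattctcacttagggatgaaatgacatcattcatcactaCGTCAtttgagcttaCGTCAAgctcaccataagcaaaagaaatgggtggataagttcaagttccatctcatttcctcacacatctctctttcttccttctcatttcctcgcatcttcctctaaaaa

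PCC1 and AT3G22235 had nearly the same start region: 96.8% of 216 aligned bases were identical, with an unbroken shared run of 155 bases. In the sequences shown PCC1 had 3 matches to TGACG, the first of them 104 bases before its annotated start. AT3G22235 had 4, the first of them 188 bases before its start. AT3G22240 lacked both motifs in this window, and its start region was 57.2% identical to that of PCC1 over 276 aligned bases. AT5G03350 had 2 matches that overlap on opposite strands, 63 and 60 bases before its start, and WRKY70 had 2, at 76 and 61 bases.

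In all, 5 of the 9 members held TGACG in these 300 bases, the fifth being CYP71A13 with 1 match, against 23.1% of 27431 protein-coding genes. At least 3 matches were found in PCC1 and AT3G22235 and in 0.933% of all promoters of this length. The W-box core was present in 4 of 9 members, WRKY70, PAD4, AT5G03350 and CYP71A13, against 50.5% of all promoters. The single match of PAD4 lies after its annotated gene start. The evening element of clock-controlled genes, AAAATATCT on either strand, was in 0 of 9 members and in 2.82% of all promoters. TGACG and the evening element were searched after the falls were known, PCC1 and AT3G22235 share their sequence, and the matches are letters only, so nothing is drawn from them about any factor.

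All 9 members were listed as lower in prmt5-5, where 4.15% of all genes tested were listed as lower. In picln-1 7 members were listed as lower, against 0.996% of all genes tested. PAD4 and CYP71A13 were not listed in picln-1. Falls of 1 or more on the log2 scale were listed for 7 members in prmt5-5, against 1.07% of all genes tested, and for 6 in picln-1, against 0.273%. With the adjusted p below 0.01 all 9 in prmt5-5 and all 7 in picln-1 stayed, against 4% and 0.898% of all genes tested. Because these changes chose the members, nothing is read from the counts. The members' median log2 change was -2.04 in prmt5-5, where the 695 listed falls had a median of -0.78. In picln-1 the 7 listed members had a median of -1.83, against -0.80 over the 164 listed falls, again by the authors' deposited table. The sizes below are the authors' log2 changes of mutant over WT. Each carries an approximate standard error (SE), the size divided by the normal quantile of the authors' p, because the tables give none.

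**Figure D1:**
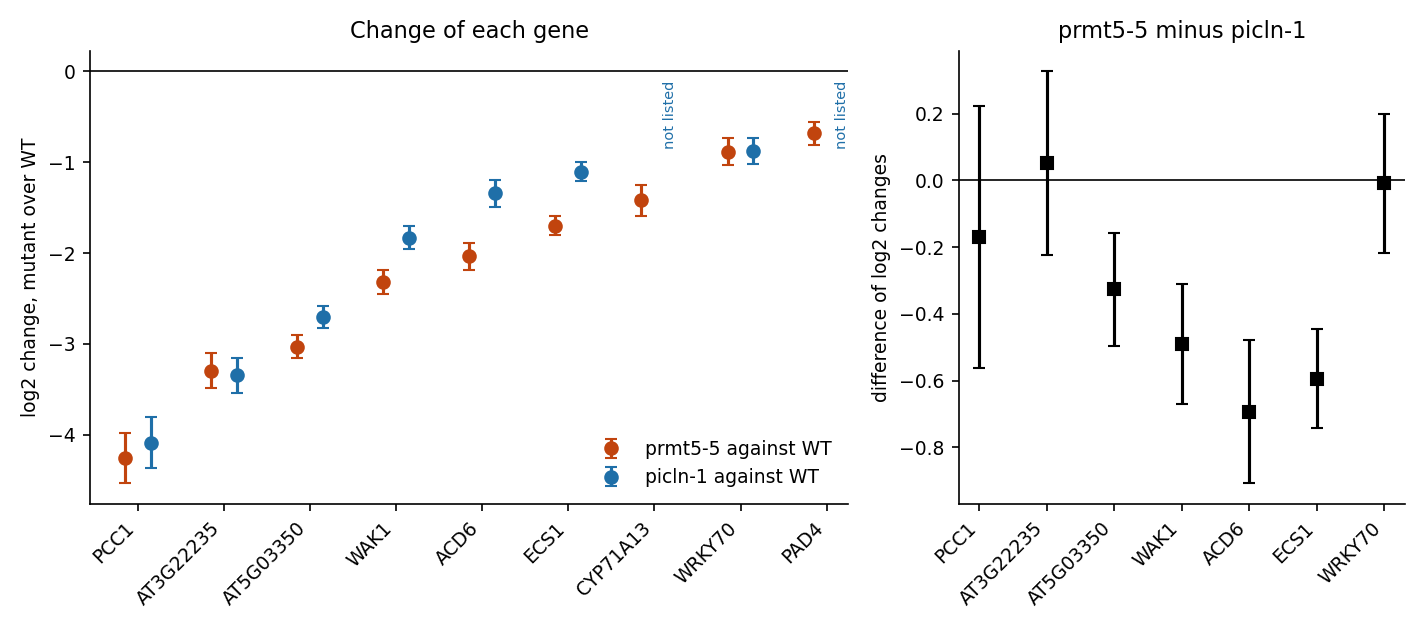
Left, the log2 change of each member against WT in prmt5-5 and in picln-1, with bars of 1 approximate SE. Right, the difference of the log2 changes, prmt5-5 minus picln-1, for the 7 members listed in both, with bars of 1 approximate SE. PCC1 lies lowest in both mutants, and ACD6, ECS1 and WAK1 lie lowest on the right.

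The deepest falls among the members were those of PCC1 and its neighbour AT3G22235. PCC1 encodes a short membrane protein that pathogens and the circadian clock control. In the authors' deposited table it had a log2 change of -4.25 (approximate SE 0.28, adjusted p = 3.97e-50) in prmt5-5 and -4.09 (0.28, adjusted p = 2.13e-46) in picln-1. These are 5.24% of the WT level in prmt5-5 and 5.89% in picln-1. The fall of PCC1 ranked 2 among all listed falls in each mutant. AT3G22235, which RefSeq annotates as a cysteine-rich transmembrane module protein, had a log2 change of -3.29 (approximate SE 0.19) in prmt5-5 and -3.35 (0.19) in picln-1 by the authors' deposited table. It was 9.80-fold lower in prmt5-5 and 10.2-fold lower in picln-1 than in WT. Its fall ranked 5 in prmt5-5 and 6 in picln-1.

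These loci sit close together. PCC1 (chromosome 3, 7845823 to 7846833), AT3G22235 (7854419 to 7855814) and AT3G22240 (7863606 to 7864895) lie on the minus strand within 19.1 kb, separated by gaps of 7.59 and 7.79 kb that hold 4 transcribed pseudogenes and a further RNA gene. AT3G22240, which is not among the 9 members, also fell: its log2 change was -1.43 (approximate SE 0.11, adjusted p = 1.21e-37) in prmt5-5 and -1.27 (0.11, adjusted p = 3.31e-29) in picln-1 by the authors' deposited table. The change thus became smaller from PCC1 to AT3G22235 to AT3G22240 in both mutants. The pseudogenes, the RNA gene and AT3G22230 on the other side of PCC1 were listed in neither table. PCC1 and AT3G22235 are close copies. Their coding sequences, 246 and 216 bases long, were 91.2% identical over 216 aligned bases, with a shared run of 166 bases, so reads could be split between them in a way the sources used here do not state. AT3G22235 and AT3G22240 were 88.4% identical, with a shared run of 53 bases, so the same holds for this pair. PCC1 and AT3G22240 were 81.2% identical, with no shared run above 17 bases.

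**Figure D2:**
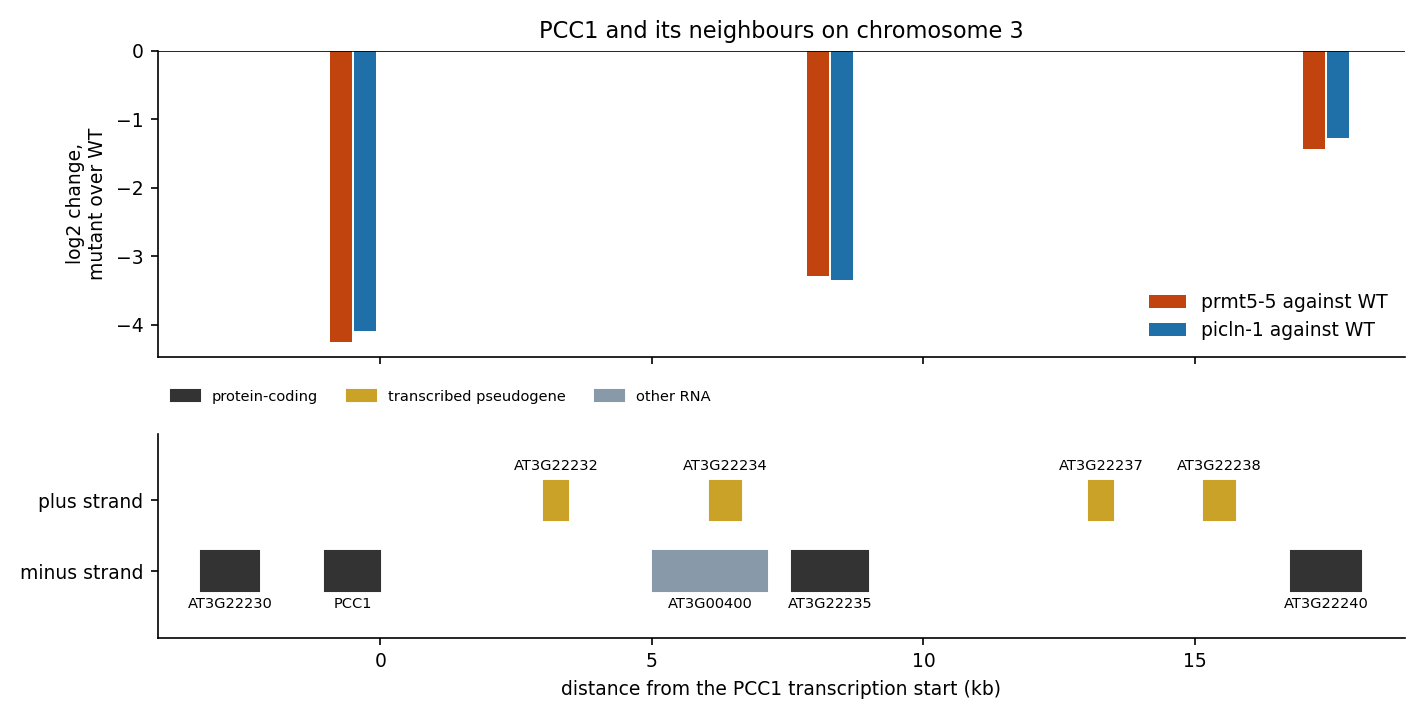
Top, the log2 change against WT of the listed loci around PCC1 in prmt5-5 and picln-1. Bottom, the annotated loci on either strand, by distance in kb from the PCC1 transcription start. PCC1, AT3G22235 and AT3G22240 carry changes of -4.25, -3.29 and -1.43 in prmt5-5 and of -4.09, -3.35 and -1.27 in picln-1, and the 6 other loci carry none.

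AT5G03350 encodes a legume-lectin-like protein that salicylic acid induces. Its log2 change was -3.03 (approximate SE 0.12, adjusted p = 2.07e-130) in prmt5-5 and -2.70 (0.12, adjusted p = 5.19e-112) in picln-1 by the authors' deposited table, 12.2% of the WT level in prmt5-5 and 15.4% in picln-1. These were the smallest adjusted p of any member. The gene lies on chromosome 5 (815610 to 816670) and overlaps AT5G03345 on the opposite strand by 50 bases. It has no annotated intron.

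The 2 members tied to the cell wall, WAK1 and ECS1, were listed as lower in both mutants. WAK1 (chromosome 1, 7439171 to 7442113) had a log2 change of -2.32 (approximate SE 0.13) in prmt5-5 and -1.83 (0.12) in picln-1 by the authors' deposited table, 20.0% of the WT level in prmt5-5 and 28.1% in picln-1. ECS1 (chromosome 1, 11310997 to 11311989), which encodes a small cell-wall protein, had a change of -1.70 (approximate SE 0.11) in prmt5-5 and -1.10 (0.10) in picln-1 by the authors' deposited table. That left 30.8% of its WT level in prmt5-5 and 46.5% in picln-1. None of the other 10 wall-associated kinase genes examined, WAK2 to WAK5 and 6 WAK-like genes, was listed in either mutant. These 10 are not the whole family. AT1G69730, a WAK-like gene outside the list, was listed as lower in prmt5-5, with a log2 change of -1.31 by the authors' deposited table. WAK1 therefore did not fall alone in its family in prmt5-5. The coding sequence of WAK1 was 85.8% identical to that of WAK3 and 81.0% to that of WAK2, with shared runs of up to 127 bases, so some of its reads could belong to these relatives.

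Of the 3 regulators among the members, ACD6 and WRKY70 were listed as lower in both mutants and PAD4 in prmt5-5. ACD6 (chromosome 4, 8294165 to 8299195) had a log2 change of -2.04 (approximate SE 0.15, adjusted p = 3.62e-38) in prmt5-5 and -1.34 (0.15, adjusted p = 1.03e-16) in picln-1 by the authors' deposited table. Its coding sequence was 84.7% identical to that of AT4G14390, with a shared run of 54 bases, so some reads could be shared there too. The transcription factor gene WRKY70 (chromosome 3, 20908711 to 20910623), a node between the salicylic acid and jasmonate pathways, changed by -0.89 (approximate SE 0.15) in prmt5-5 and -0.88 (0.15) in picln-1 by the authors' deposited table, 54.1% of the WT level in prmt5-5 and 54.4% in picln-1. Its fall was the shallowest of the 7 members listed in picln-1. PAD4 (chromosome 3, 19431095 to 19434450), a lipase-like regulator, fell by 0.68 (approximate SE 0.13, adjusted p = 7.05e-07) in prmt5-5 by the authors' deposited table, to 62.3% of the WT level. That is close to the smallest listed size, and the change of PAD4 in picln-1 is unknown.

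CYP71A13 (chromosome 2, 13109909 to 13111988) turns indole-3-acetaldoxime into the nitrile on the way to camalexin. It fell by 1.42 (approximate SE 0.17, adjusted p = 4.51e-15) in prmt5-5 by the authors' deposited table, to 37.4% of the WT level. Its near copy CYP71A12 was listed in neither mutant. The coding sequences of the 2 were 90.4% identical, and CYP71A13 overlaps AT2G30766 on the opposite strand by 572 bases. Reads could therefore be shared with either gene.

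**Figure D3:**
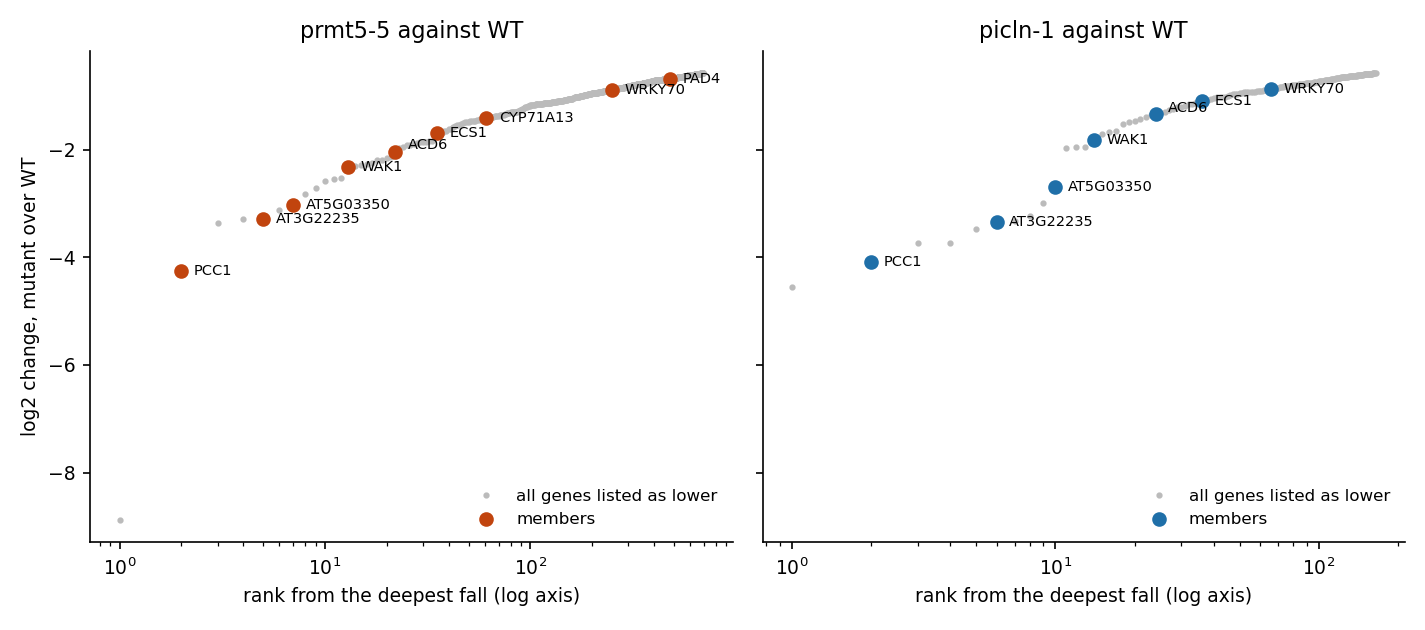
Genes listed as lower in prmt5-5 (695, left) and in picln-1 (164, right), by rank from the deepest fall on a log axis, against their log2 change over WT. Coloured points are members, from rank 2 (PCC1) to rank 480 (PAD4) in prmt5-5 and to rank 66 (WRKY70) in picln-1.

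Set side by side, the 7 members listed in both mutants differed most in ACD6, ECS1 and WAK1, each lower in prmt5-5, and least in WRKY70. The difference of the log2 changes, prmt5-5 minus picln-1, was -0.69 (approximate SE 0.21) for ACD6, -0.60 (0.15) for ECS1 and -0.49 (0.18) for WAK1. In level terms prmt5-5 held 0.618 of the ACD6 transcript of picln-1, 0.662 of the ECS1 transcript and 0.711 of the WAK1 transcript. For these 3 genes the difference exceeded 2 approximate SE. For AT5G03350 it was -0.33 (approximate SE 0.17). PCC1 differed by -0.17 (0.39), WRKY70 by -0.01 (0.21) and AT3G22235 by 0.05 (0.28), each less than 1 approximate SE. The SE of a difference counts the spread of the shared WT libraries once for each mutant although WT cancels out, which widens it, while p-values that measure only technical spread would make it too narrow. No test was made, because the same changes chose the genes.

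The wider pathway was read from 5 lists of 70 loci, 61 of them not members. Of those 61, 6 were listed in prmt5-5 (9.84%, against 9.14% of all genes tested), 5 of them lower (8.20%, against 4.15%). In picln-1 2 were listed, both lower (3.28%, against 1.69% of all genes tested in either direction and 0.996% lower). These 2 were AT3G22240 and WRKY54, relatives of the members AT3G22235 and WRKY70. Both were also among the 5 listed as lower in prmt5-5. The lists were chosen with earlier results of these data known, so nothing is read from these shares. Loci that were not tested count in these denominators. Of the 61 loci, 55 were not listed in prmt5-5 and 59 in picln-1. Such a locus may have passed the p limit with a smaller change.

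Among synthesis genes and regulators, SAG101, whose protein pairs with EDS1 as PAD4 does, rose by 0.80 (approximate SE 0.11, adjusted p = 1.24e-11) in prmt5-5 by the authors' deposited table, opposite to PAD4. NIMIN2, whose protein binds the coactivator NPR1, fell by 0.63 (approximate SE 0.23, adjusted p = 0.0153) by the authors' deposited table for prmt5-5. The other 22 non-members of this list were not listed in prmt5-5, among them EDS1, the salicylic acid synthesis gene ICS1, the transporter gene EDS5, NPR1 and all 6 TGA factors. In picln-1 0 of the 24 were listed, against 1.69% of all genes tested.

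Of the WRKY genes, WRKY54, the closest relative of WRKY70, had the larger change in picln-1, a difference that was not tested: its log2 change was -0.72 (approximate SE 0.16, adjusted p = 4.07e-05) in prmt5-5 and -1.22 (0.16, adjusted p = 2.64e-11) in picln-1 by the authors' deposited table. WRKY50 fell by 0.62 (0.23, adjusted p = 0.0190) in prmt5-5 by the authors' deposited table, and the other 9 defence WRKY genes examined were not listed in either mutant. Among salicylic acid outputs, NHL10 (RefSeq symbol YLS9) fell by 1.90 (approximate SE 0.39, adjusted p = 1.13e-05) in prmt5-5 by the authors' deposited table and was not listed in picln-1. The classical marker genes PR1, PR2 and PR5 were listed in neither mutant, nor were the lectin-like relatives AT3G16530 and AT3G15356. The other 6 camalexin genes, from CYP79B2 to PAD3, were not listed either.

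**Figure D4:**
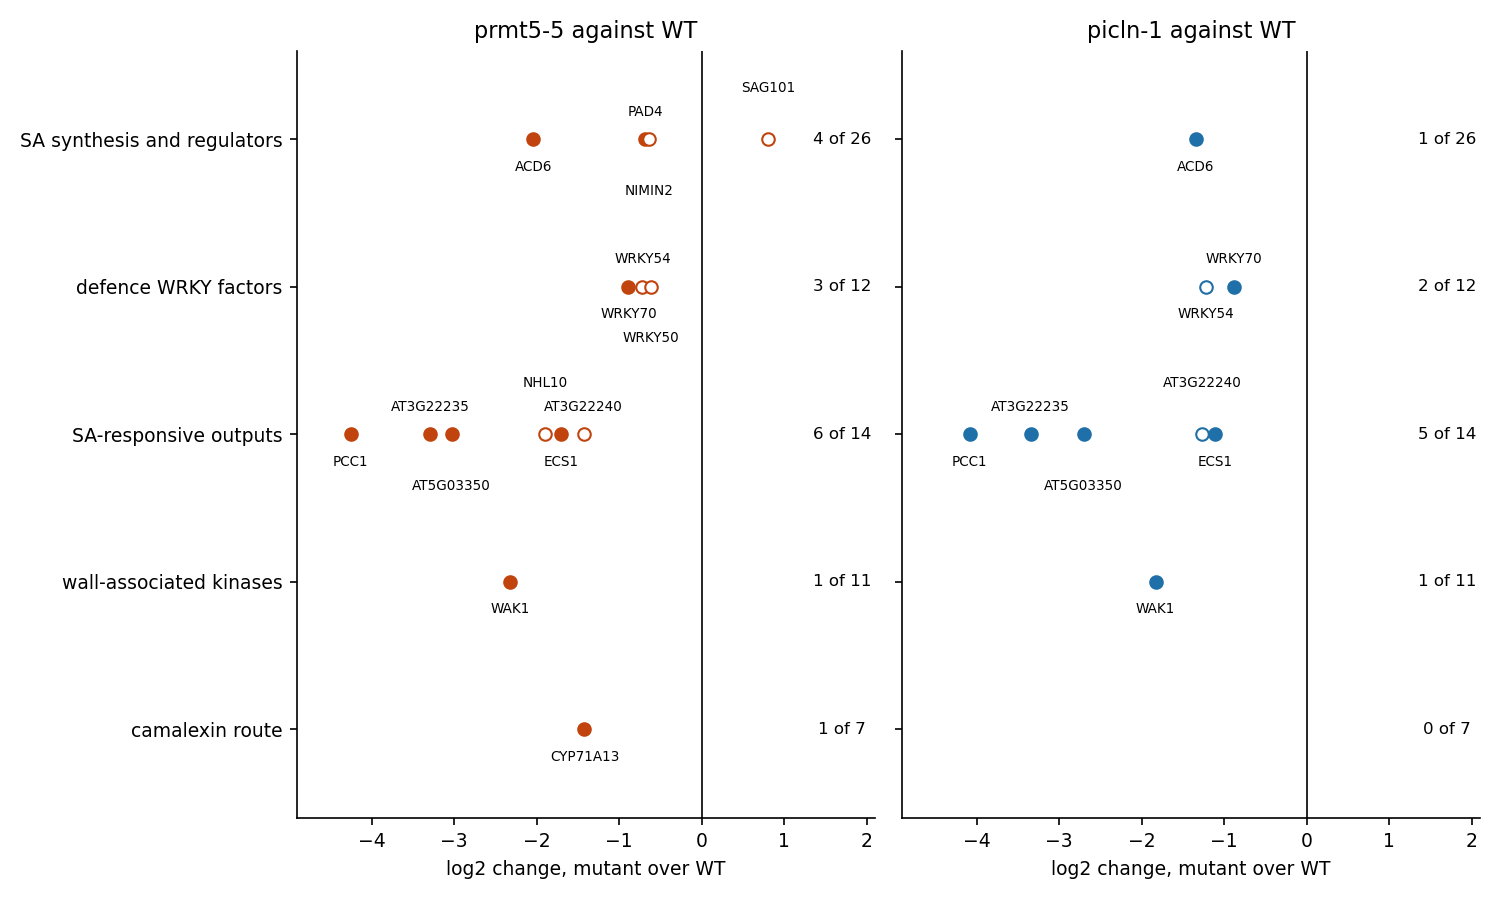
Log2 change against WT of the listed genes in 5 pathway lists, in prmt5-5 (left) and picln-1 (right). Filled points are members and open points other genes, and the numbers at the right give the genes listed of all genes in the list. SAG101 in prmt5-5 is the single point above 0.

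Splicing changes were not listed for any member. The 9 genes have 20 annotated introns in all, from 0 in AT5G03350 to 6 in ACD6, and 0 of their bins were listed in prmt5-5 or picln-1, against 2.88% of all bins tested in prmt5-5 and 0.479% in picln-1. How many of the members' bins were tested is unknown. In the 61 other pathway genes, 2 introns were listed in prmt5-5 and 0 bins in picln-1. Intron 1 of 3 of NPR4, a salicylic acid receptor, stayed in 20.0% of its junction reads in prmt5-5 libraries, 13.6% in picln-1 and 5.08% in WT (log2 usage change in prmt5-5 2.05, adjusted p = 0.00828) by the authors' deposited table. Intron 6 of 8 of TGA1, a bZIP factor that works with NPR1, was retained in 13.1% in prmt5-5 and 8.25% in picln-1, against 6.23% in WT (log2 usage change 0.96, adjusted p = 0.0242) by the authors' deposited table. Both lie in the coding sequence of the first annotated transcript that holds them, and neither length, 91 and 82 bases, is a multiple of 3. Read in the frame of that transcript, the NPR4 intron holds 4 stop codons and the TGA1 intron 2. The introns are printed 5′ to 3′ on the gene's strand with the splice site dinucleotides in capitals, to show what the retained transcripts would contain.
NPR4 intron 1 (chr4:10697634-10697724, minus strand): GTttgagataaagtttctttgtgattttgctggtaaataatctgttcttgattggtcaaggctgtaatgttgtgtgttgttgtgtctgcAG
TGA1 intron 6 (chr5:26059853-26059934, plus strand): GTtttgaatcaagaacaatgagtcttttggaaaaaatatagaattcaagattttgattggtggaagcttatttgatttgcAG

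**Figure D5:**
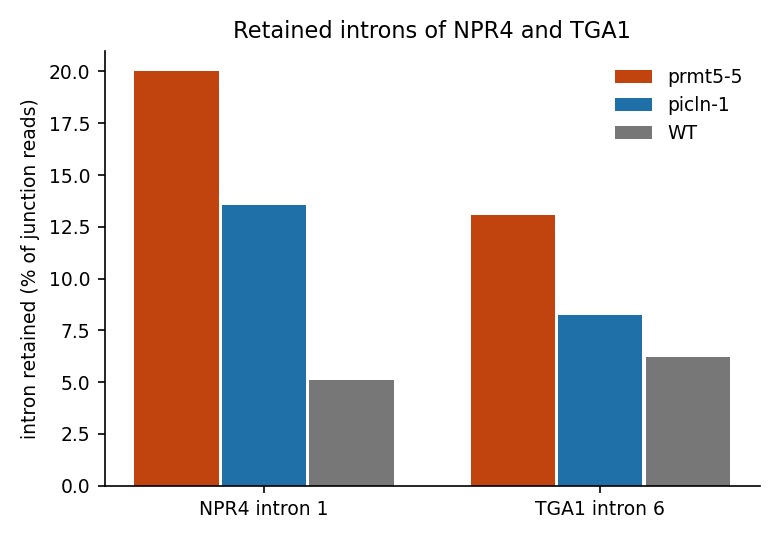
Share of junction reads that retain intron 1 of NPR4 and intron 6 of TGA1 in prmt5-5, picln-1 and WT, 1 value per genotype as the authors give it, with no error. For NPR4 the bars stand at 20.0% in prmt5-5, 13.6% in picln-1 and 5.08% in WT, and for TGA1 at 13.1% in prmt5-5, 8.25% in picln-1 and 6.23% in WT.

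Other genes were ranked by how near their pair of log2 changes lay to that of PCC1, among 65 non-members listed as lower in both mutants. The nearest was AT5G42530, which encodes an uncharacterized protein, with -3.29 in prmt5-5 and -3.33 in picln-1 by the authors' deposited table, at a distance of 1.22 on the log2 scale. AT2G25510 (-2.52 in prmt5-5, -2.98 in picln-1) and AT5G27250 (-1.28 in prmt5-5, -3.23 in picln-1) followed, with distances of 2.06 and 3.10, then the isocitrate lyase gene ICL at 3.13 and the calcium-binding protein gene AT2G41090 at 3.22. Nearest to the median of the 7 members (-2.32 in prmt5-5, -1.83 in picln-1) was ICL, with -2.27 in prmt5-5 and -1.67 in picln-1 by the authors' deposited table, at a distance of 0.17. AT2G41090 (-1.84 in prmt5-5, -1.95 in picln-1), AT1G65490 (-2.16, -1.36), AT5G08760 (-1.86, -1.32) and the vegetative storage protein gene VSP1 (-2.13, -0.94) came next by the authors' deposited table. The likeness rests on 2 values per gene that share the WT libraries.

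The immediate neighbours of the members on the chromosome were not listed: 0 of 18 in prmt5-5 and 0 of 18 in picln-1, against 9.14% and 1.69% of all genes tested. Pseudogenes and a noncoding RNA are among the 18, and loci that were not tested count in them. Beyond the pseudogenes next to PCC1, the protein-coding genes AT3G22235 and AT3G22240 were listed as lower in both mutants. Seedlings were sequenced whole, so fewer cells of a type and less RNA per cell cannot be told apart for any of these genes.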

How the data were processed

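The authors deposited 4 tables of comparisons, genes and bins for prmt5-5 and for picln-1, each against WT. Per the submitters' processing notes TopHat and TAIR10 were used, and the counting and testing program is not given in these sources. Per the file headers the authors give log2 changes, p-values and adjusted p-values, and for bins the fraction of junction reads retained per genotype, multiplied here by 100. Base 2 was taken because the smallest listed size, 0.58, is then a 1.5-fold change. Bins were listed by the authors at an adjusted p below 0.15 and a fraction change above 0.05. Numbers of features tested follow from adjusted p divided by raw p, which is that number over the rank (recovered in 4 of 4 simulated tables). The simulated tables always kept the smallest p and had no size limit. Among listed genes 94.7% gave a whole rank in prmt5-5 and 87.8% in picln-1. Among listed bins 84.9% did in prmt5-5 and 80.8% in picln-1, so the numbers tested are inferred values. Approximate standard errors are |log2 change| divided by the normal quantile of p/2. Values per library and depth are unknown, so count tests were not possible, and p-values may measure only technical spread, as no label says that libraries came from separate cultures.

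TAIR10 positions in the tables were compared with RefSeq's TAIR10.1 annotation: 99.7% of the listed intron bins of prmt5-5 and 99.6% of those of picln-1 equalled an annotated intron. All 70 list loci matched RefSeq. Coding sequences and start regions were aligned globally in Biopython 1.88 (match 2, mismatch -1, gap opening -5, extension -1), under Python 3.11.15, with scipy 1.17.1 for quantiles, pandas 2.3.3 and numpy 2.4.6. The members and the 5 lists were chosen with earlier results of these data known. Named genes are the members, listed genes of the lists, listed neighbours, the 5 genes nearest in pattern to PCC1 and to the members' median, pICln and PRMT5. AT1G69730 was added afterwards, because the list of wall-associated kinases left it out. Alternatives were a stricter adjusted p, a larger change, lists without members, another quantile, more neighbours and other motif letters.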

Additional observations from a re-analysis of the deposited data

How the results depend on the processing

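Counting the authors' calls at an adjusted p below 0.01 left 9 members in prmt5-5 and 7 in picln-1, and 13 and 9 of the 70 pathway loci, against 15 and 9 at the deposited limit. A minimum log2 change of 1 left 7 members in prmt5-5 and 6 in picln-1. Without the members the lists held 6 listed genes in prmt5-5 and 2 in picln-1, by construction, since the members make up the rest. With the 3 nearest loci on either side 1 of 51 neighbours was listed in each mutant, AT3G22240. W-box letters TTGACC or TTGACT were found in 1 of 9 members, in PAD4 after its gene start, against 32.4% of all promoters. TTGAC within 1000 bases before the start was found in 7 of 9 (88.1% of all). That window was chosen after seeing the data, as were TGACG and the evening element. Approximate standard errors from a t quantile with 6 degrees of freedom were at most 0.022 for all 16 values, since the deposited p then imply far larger quantiles. Refits without each replicate need values per library and were not run. No paired analysis was possible because the tables hold no values per library. Depth is unknown, so a gene that was not listed may have been too low to test.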
